A study of Mus musculus with 16 samples.

Results

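Mouse hepatocytes that shared a culture with Phgdh wild-type cancer cells (wild-type co-culture, n = 3 libraries) were compared with hepatocytes kept without cancer cells (hepatocytes alone, n = 3 libraries) across all genes of the table. The groups were chosen by the sample labels and make up 6 of the 16 libraries of the series. By its title the series concerns serine that hepatocytes supply to pancreatic cancer in liver metastasis, and Phgdh codes for the enzyme that opens the serine synthesis pathway. For named genes, values are also given for hepatocytes with Phgdh knockout cancer cells (n = 3) and for hepatocytes with wild-type cancer cells and a CXCR2 inhibitor (n = 3). A further group of 4 libraries had knockout cells and the inhibitor. It entered only the shared estimate of the spread and the choice of genes tested, made by their mean over 16 libraries. The labels call the hepatocytes a cell line without naming its origin, and they give no medium, duration, contact or separation of the cells, dose or vehicle. The design text of the series speaks of HY19636 cancer cells as the sequenced material, whereas every label names hepatocytes, and the labels were followed. Whether replicates were separate cultures is not stated, so each p-value rests on the spread among libraries, which may be technical.

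Expression is given as FPKM, fragments per kilobase of gene and per M fragments. Differences are given as the mean log2(FPKM + 1) of wild-type co-culture minus that of hepatocytes alone, with the SE after ±. Adding 1 makes this difference smaller for genes of low level. A gene is said to have risen or fallen where limma's adjusted p was at most 0.05 over the 11395 genes with a mean of at least 1 FPKM. Recovered fragments came to 16.2 to 20.9 M per wild-type co-culture library and to 16.4 to 21.02 M per library of hepatocytes alone. Mitochondrially encoded transcripts took 3.49 to 4.57% of fragments in wild-type co-culture, highest in replicate 1, and 3.41 to 3.79% in hepatocytes alone.

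Hepatocytes are secretory cells that fold plasma proteins in the endoplasmic reticulum (ER). Unfolded protein in the ER activates the sensors IRE1, PERK and ATF6, which raise chaperones, oxidases, glycosylation enzymes and degradation factors and, through ATF4, amino acid synthesis and import. Lack of amino acids reaches ATF4 through another kinase, GCN2. In liver, NF-kB and STAT3 drive chemokines and acute phase proteins, and E2F and the DREAM and MuvB complexes time the genes of DNA replication and mitosis.

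The labelled cell type was checked against defining markers. Of 15 hepatocyte markers, Hnf4a, which encodes a nuclear receptor of hepatocyte identity, was read at 46.7, 51.8 and 50.98 FPKM in wild-type co-culture and 47.7, 46.4 and 45.9 FPKM in hepatocytes alone. Alb, encoding albumin, was at 27.2, 22.5 and 23.02 FPKM in wild-type co-culture and 57.8, 58.4 and 55.01 FPKM in hepatocytes alone. Markers of mature liver function were at or near 0 in all 6 libraries: the urea cycle gene Cps1 and the cytochrome gene Cyp2e1 did not exceed 0.293 and 0.159 FPKM, and the gluconeogenic genes Pck1 and G6pc did not exceed 0.0769 and 0.1298 FPKM. The summed level of the 15 markers was 166 to 189.9 FPKM in wild-type co-culture and 308 to 313 FPKM in hepatocytes alone. Of the 12 tested, 7 fell and 0 rose. The median difference was -0.35, and -1.20 with voom on recovered fragments, where 8 fell. The tested members include 3 under 1 FPKM in all 6 libraries (Cps1, Cyp3a11 and Tat), and at such levels the pseudocount of 1 shrinks differences.

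Most markers of pancreatic ductal cells and ductal cancer were low, but a few were abundant. Of 16 such genes, 12 stayed under 1 FPKM in all 6 libraries and 5 of these, Muc4, Tff1, Tff2, Agr2 and Gkn1, were listed at 0 in each. The summed level of the 16 was 303 to 327 FPKM in wild-type co-culture and 414 to 426 FPKM in hepatocytes alone. In both groups this was above the sum of the hepatocyte markers. The mesothelin gene Msln was the highest of the list, with 183, 202 and 203 FPKM in wild-type co-culture and 205, 204 and 193 FPKM in hepatocytes alone, and the ranges overlapped (difference -0.03 ± 0.04, adjusted p = 0.527, which under quantile normalization turned to 0.12 with adjusted p = 0.0157). The keratin gene Krt19 was at 18.04, 25.99 and 21.9 FPKM in wild-type co-culture, below 99.9, 95.1 and 95.7 FPKM in hepatocytes alone. The pancreatic factor gene Pdx1 was at 0.0863, 0.147 and 0.0442 FPKM in wild-type co-culture and at 0 in hepatocytes alone, and the surface marker Epcam was at 0.183, 0.207 and 0.117 FPKM in wild-type co-culture and 0.0287, 0.0614 and 0.0719 FPKM in hepatocytes alone. These levels amount to few fragments, and the share of cancer cell RNA in the co-culture libraries was not tested. Of 10 cholangiocyte markers, some shared with the ductal list, 4 were under 1 FPKM in all 6 libraries. Their summed level was 411 to 434 FPKM in wild-type co-culture and 1225.5 to 1245 FPKM in hepatocytes alone. Of the 5 tested, 4 fell, 3 by at least 2-fold, and 0 rose. The 10 acinar, 13 stellate cell, 8 endothelial and 8 neutrophil markers were each under 1 FPKM in all 6 libraries, and of 10 Kupffer cell markers only Cd68 passed 1 FPKM. In such bulk libraries, fewer cells of a type and less RNA per cell cannot be told apart.

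The level of Phgdh (ENSMUSG00000053398 on GRCm38, chromosome 3, 98313170 to 98339990) was 199, 206 and 195 FPKM in wild-type co-culture and 207, 207 and 203 FPKM in hepatocytes alone. The ranges overlapped and the difference of -0.04 ± 0.04 did not pass the test (adjusted p = 0.319). Its sign turned under quantile normalization (0.0873) and under scaling without abundant genes (0.0227), with neither past the threshold. The knockout of the study lies in the cancer cells, so this level does not check the labels. Cxcr1 and Cxcr2, the receptor genes that a CXCR2 inhibitor would concern, were listed at 0 in all 6 libraries.

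Of 11395 genes tested, 3432 (30.1%) rose and 3638 (31.9%) fell in wild-type co-culture. At least 2-fold rises numbered 296 (2.6%) and at least 2-fold falls 724 (6.35%), so large changes were mostly falls. At 4-fold or more, 43 genes rose and 180 fell. The median difference over all genes was 0.00625, which is the background for the group medians given below. Of the genes that passed, 48.5% had risen, against 55.9% with quantile normalization and 56.0% with scaling that left out mitochondrial and the 50 most abundant genes.

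**Figure D1:**
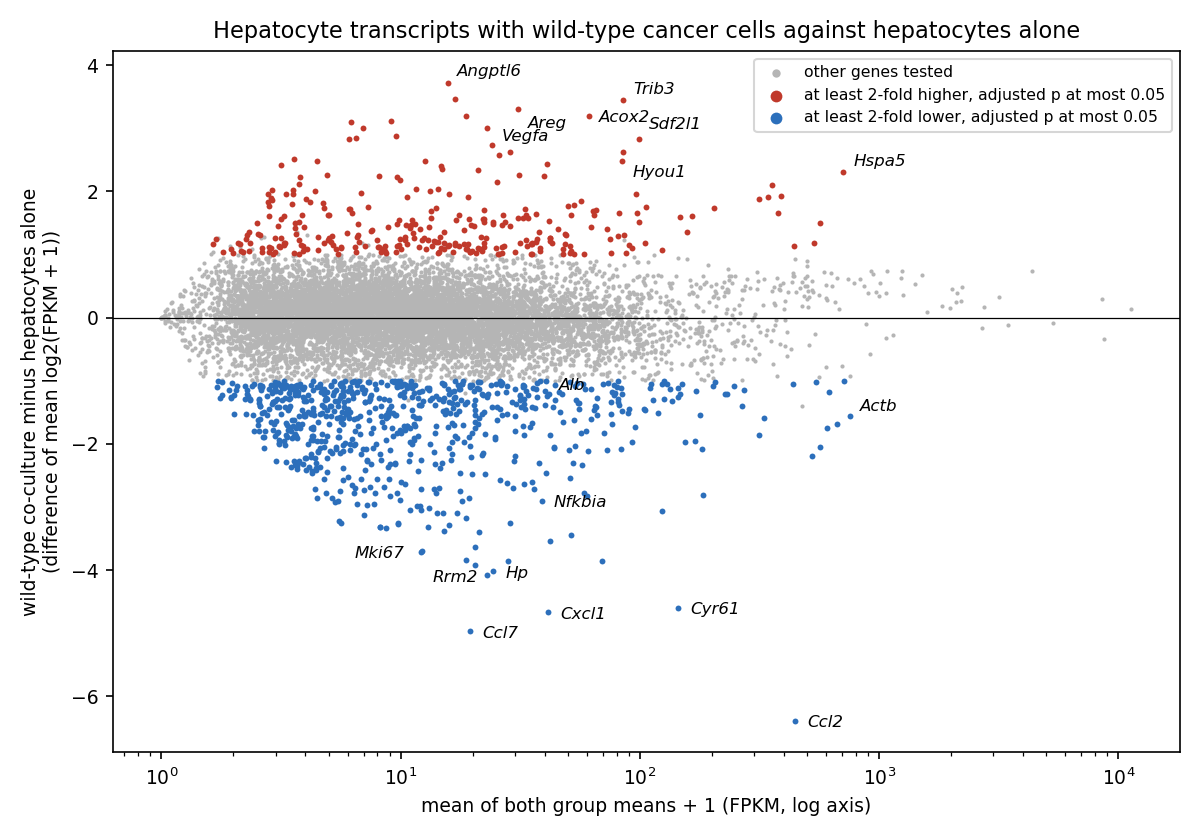
Difference of mean log2(FPKM + 1), wild-type co-culture minus hepatocytes alone, against the mean of both groups on a log axis, one point per tested gene. The 296 red points rose and the 724 blue points fell by at least 2-fold. Ccl2 lies lowest at -6.38 and Angptl6 highest at 3.72.

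ER folding genes rose together. Among 22 tested ER chaperones and cochaperones 21 rose, 0 fell and 1 (Sdf2) did not pass, with 13 rises of at least 2-fold and a median of 1.31. Hspa5 encodes BiP, the main Hsp70 of the ER, and was read at 1245, 1118 and 1149.7 FPKM in wild-type co-culture, against 241, 232 and 234 FPKM in hepatocytes alone. The groups stood far apart, with a difference of 2.31 ± 0.04 (adjusted p = 3.9e-15). Its nucleotide exchange partner Hyou1 reached 139.5, 145 and 141 FPKM in wild-type co-culture and 24.9, 24.3 and 24.2 FPKM in hepatocytes alone (2.49 ± 0.04). Larger still were Sdf2l1, a cofactor of BiP, with 153, 180.3 and 184 FPKM in wild-type co-culture and 23.5, 24.1 and 22.6 FPKM in hepatocytes alone (2.83 ± 0.08), and Creld2, with 119.6, 158 and 156 FPKM in wild-type co-culture and 22.5, 22.9 and 21.98 FPKM in hepatocytes alone (2.62 ± 0.095). In both, replicate 1 of wild-type co-culture was the lowest of its group and still above every library of hepatocytes alone. Hsp90b1 (GRP94, 1.903 ± 0.06), the secreted ER factor Manf (1.95 ± 0.08), the lectin chaperone Calr (1.49 ± 0.04) and the J-domain partners of BiP Dnajc3 (1.62 ± 0.06), Dnajb11 (1.53 ± 0.06) and Dnajb9 (1.51 ± 0.07) rose as well. The other lectin chaperone, Canx, rose less, to 268 ± 24.97 FPKM in wild-type co-culture against 181 ± 6.25 FPKM in hepatocytes alone (SD, n = 3 each).

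The promoters of these genes were searched for the ER stress response element (ERSE), the site that ATF6 binds together with NF-Y. The motif is CCAAT, then 9 bases of any kind, then CCACG, and both strands were searched from 250 bases before to 50 bases after the start of each gene (RefSeq, GRCm38.p6). Promoter sequences were found for 8275 of 10226 tested protein-coding genes (80.9%). For gene lists, here and below, every listed gene with a sequence was counted, whether tested or below the filter. The 200 bases before the start are shown for Hspa5 and Creld2 because each holds 1 such match, in capitals, and because both genes rose by more than 4-fold. Hspa5 lies at chr2:34771890-34772089, plus strand, and Creld2 at chr15:88819446-88819645, plus strand, where the match reads on the opposite strand.
Hspa5: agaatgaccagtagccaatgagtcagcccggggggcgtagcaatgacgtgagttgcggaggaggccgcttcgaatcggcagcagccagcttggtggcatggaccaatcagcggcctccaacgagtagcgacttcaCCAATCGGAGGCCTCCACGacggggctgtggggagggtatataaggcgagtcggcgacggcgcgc
Creld2: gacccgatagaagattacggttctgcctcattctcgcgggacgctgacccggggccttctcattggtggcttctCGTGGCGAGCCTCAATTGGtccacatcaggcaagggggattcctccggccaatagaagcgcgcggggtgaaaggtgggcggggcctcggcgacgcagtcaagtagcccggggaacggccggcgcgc
The match ended 47 bases before the start in Hspa5 and 108 bases before it in Creld2. The motif stood in 6 listed chaperones, which is 30.0% of the 20 with a sequence, against 0.157% of tested promoters and 0.13% of all 27025 promoters. In the whole tested set 13 genes held it. Of these, 12 rose and 1 (Spats2l, -0.21, adjusted p = 0.0523 with only the 6 libraries compared) fell, 9 rose by at least 2-fold, and the median difference was 1.62. The 9 were Creld2, Hspa5, Hsp90b1, Pdia6, Ero1lb, Alg12, Dnajc3, Calr and Syvn1. Canx, Hnrnpa3 (0.42) and Pan2 (0.16) rose by less, and the call of Pan2 was lost with only the 6 libraries compared (adjusted p = 0.102). None of the 523 promoters of genes that fell by at least 2-fold held a match, which says little for a motif in 0.157% of tested promoters. A match is a description of the sequence and does not show binding.

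Other steps of ER protein handling rose together with the chaperones. Disulfide isomerases and oxidases rose in 12 of 18 tested members and fell in 1 (median 0.76). Pdia4 was read at 632, 602 and 609 FPKM in wild-type co-culture and 158, 159 and 164 FPKM in hepatocytes alone (1.93 ± 0.03), Pdia6 differed by 1.75 ± 0.05, Pdia5 by 1.72 ± 0.06 and the oxidase Ero1lb by 1.74 ± 0.103. P4hb, another abundant isomerase, rose to 638 ± 8.55 FPKM in wild-type co-culture against 363 ± 2.08 FPKM in hepatocytes alone (SD, n = 3 each). For ER-associated degradation, the route by which misfolded proteins leave the ER, 18 of 26 tested genes rose and 2 fell (median 0.38). They included Selenos (1.66 ± 0.04), Sel1l (1.56 ± 0.04) with its ubiquitin ligase Syvn1 (1.26 ± 0.05), the membrane protein Herpud1 (1.51 ± 0.05) and the channel protein Derl1 (1.29 ± 0.03). Of 29 tested genes of N-glycosylation and its sugar supply, 24 rose and 1 fell (median 0.65). Alg12, a mannosyltransferase, was read at 19.8, 19.03 and 19.3 FPKM in wild-type co-culture and 5.17, 5.93 and 4.88 FPKM in hepatocytes alone (1.69 ± 0.06). The oligosaccharyltransferase subunit Rpn1 (1.5998 ± 0.04) and Gfpt1, which starts hexosamine synthesis (1.55 ± 0.06), moved alike.

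Entry into and exit from the ER followed with smaller changes. Of 22 tested translocon, signal recognition and signal peptidase genes 17 rose and 1 fell, but only 1 (Spcs2, 1.003) by 2-fold (median 0.61). Of 32 coat and cargo receptor genes between ER and Golgi 29 rose and 2 fell (median 0.42). Of these the coat subunit Sec24d changed most, with 5.999, 5.07 and 4.84 FPKM in wild-type co-culture and 0.787, 0.644 and 0.688 FPKM in hepatocytes alone (1.88 ± 0.07). The cargo receptor pair Lman1 and Mcfd2 rose by 1.17 ± 0.04 and 1.23 ± 0.03. Reep6, which encodes a shaping protein of ER membranes and was in no list, was among the 10 largest rises, with 35.8, 41.8 and 41.6 FPKM in wild-type co-culture and 3.995, 3.802 and 4.35 FPKM in hepatocytes alone (3.01 ± 0.07).

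Sensors and transcription factors of the response rose in 17 of 27 tested members and fell in 5 (median 0.53). The sensor gene Ern1 (IRE1) was read at 16.3, 16.01 and 15.3 FPKM in wild-type co-culture and 4.89, 4.95 and 5.27 FPKM in hepatocytes alone (1.48 ± 0.04), Atf6 differed by 1.182 ± 0.08, and Xbp1, whose mRNA IRE1 splices, by 1.03 ± 0.04. The PERK gene Eif2ak3 behaved otherwise and fell slightly, to 15.04 ± 0.278 FPKM in wild-type co-culture against 16.5 ± 0.346 FPKM in hepatocytes alone (-0.13 ± 0.03), a call lost with only the 6 libraries compared (adjusted p = 0.0548). Gene-level FPKM do not show the splicing of Xbp1 or the activity of any sensor.

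Several targets of ATF4 had larger differences than Atf4. This gene was read at 219, 255 and 262 FPKM in wild-type co-culture and 142, 131 and 139.6 FPKM in hepatocytes alone (0.83 ± 0.06). Trib3, a pseudokinase gene driven by ATF4 and CHOP, was read at 135, 163 and 163 FPKM in wild-type co-culture and 14.3, 13.1 and 12.3 FPKM in hepatocytes alone (3.44 ± 0.08). Ddit3, encoding CHOP, was at 58.5, 68.6 and 67.2 FPKM in wild-type co-culture and 14.2, 11.3 and 13.4 FPKM in hepatocytes alone (2.24 ± 0.07). Each of these genes was higher in all 3 co-culture libraries than in any library of hepatocytes alone. Groups without overlap, in either direction, were found for 7104 of the 11395 genes tested, so this does not single them out. Chac1, which degrades glutathione (1.704 ± 0.104), Ppp1r15a, which restarts translation (1.68 ± 0.102), Atf5 (1.61 ± 0.07) and the leucine sensor Sesn2 (1.56 ± 0.05) rose too. Not every stress gene of the list moved this way. Atf3 was at 35.3, 32.9 and 31.6 FPKM in wild-type co-culture and 32.7, 30.2 and 31.5 FPKM in hepatocytes alone and did not pass the test (adjusted p = 0.28), and Ddit4, an inhibitor of mTORC1, fell by 0.89 to 11.004, 14.04 and 14.7 FPKM in wild-type co-culture against 27.2, 23.999 and 24.5 FPKM in hepatocytes alone.

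Amino acid import showed some of the largest rises. Of 19 tested transporters 11 rose and 3 fell, with 7 rises of at least 2-fold (median 0.47). The cationic transporter gene Slc7a3 was read at 9.98, 9.69 and 9.32 FPKM in wild-type co-culture and 0.325, 0.778 and 0.439 FPKM in hepatocytes alone (2.83 ± 0.095). Slc1a4, which carries serine, alanine and cysteine, was read at 48.8, 48.9 and 47.2 FPKM in wild-type co-culture and 7.44, 6.26 and 7.39 FPKM in hepatocytes alone (2.62 ± 0.06). Slc3a2, the heavy chain shared by several exchangers, was at 511, 626 and 603 FPKM in wild-type co-culture and 137, 129.8 and 134 FPKM in hepatocytes alone (2.105 ± 0.06). Its light chains Slc7a11 (cystine, 1.796 ± 0.06) and Slc7a5 (large neutral amino acids, 1.17 ± 0.05) and the glycine carrier Slc6a9 (1.97 ± 0.09) rose as well. The glutamine carrier Slc38a2 did not pass the test, at 51.97 ± 5.15 FPKM in wild-type co-culture and 54.1 ± 2.74 FPKM in hepatocytes alone, but passed as lower without replicate 1 of wild-type co-culture (-0.14).

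Serine and one-carbon enzymes moved apart. Of 24 tested, 13 rose and 7 fell (median 0.23), against 30.1% and 31.9% of all genes, so the share of falls was near the background. In serine synthesis, Phgdh did not pass the test, Psat1 fell slightly to 142, 123 and 123 FPKM in wild-type co-culture against 154, 147 and 156 FPKM in hepatocytes alone (-0.24 ± 0.05, adjusted p = 0.0718 under quantile normalization), and Psph, the last step, was read at 24.6, 25.2 and 26.9 FPKM in wild-type co-culture and 9.72, 9.76 and 8.03 FPKM in hepatocytes alone (1.39 ± 0.06). Psph overlaps Cct6a on the other strand, which differed by -0.19. Of the enzymes that interconvert serine and glycine, the mitochondrial Shmt2 was at 74.9, 80.3 and 77.3 FPKM in wild-type co-culture and 47.1, 42.96 and 43.7 FPKM in hepatocytes alone (0.78 ± 0.07). The cytosolic Shmt1 was at 15.9, 16.5 and 16.3 FPKM in wild-type co-culture and 28.5, 28.6 and 26.96 FPKM in hepatocytes alone (-0.75 ± 0.06), so the mitochondrial and cytosolic forms moved in opposite directions. The mitochondrial folate enzymes Mthfd2 (0.87 ± 0.04) and Mthfd1l (0.47 ± 0.06) rose, and Aldh1l2, a mitochondrial folate enzyme that yields NADPH, was read at 11.03, 10.1 and 10.3 FPKM in wild-type co-culture and 0.617, 0.443 and 0.717 FPKM in hepatocytes alone (2.85 ± 0.06). Gldc, which breaks glycine down, fell to 31.1, 35.1 and 33.1 FPKM in wild-type co-culture against 98.3, 97.6 and 97.5 FPKM in hepatocytes alone (-1.54 ± 0.05). Cth, which makes cysteine by transsulfuration, was at 42.9, 42.6 and 43.3 FPKM in wild-type co-culture and 6.08, 6.69 and 6.39 FPKM in hepatocytes alone (2.57 ± 0.05).

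Of 22 other amino acid enzymes tested 9 rose and 7 fell (median 0.03), near the 30.1% and 31.9% of all genes. The proline synthesis genes Pycr1 and Aldh18a1 rose by 2.36 ± 0.04 and 1.77 ± 0.04, and Asns, which makes asparagine, was read at 159, 137 and 141 FPKM in wild-type co-culture and 61.4, 63.9 and 64.003 FPKM in hepatocytes alone (1.19 ± 0.05). Glud1, which releases ammonia from glutamate, fell by 1.25 to 84.2 ± 4.68 FPKM in wild-type co-culture against 202 ± 2.28 FPKM in hepatocytes alone (SD, n = 3 each). Of 20 cytosolic aminoacyl-tRNA synthetases 13 rose and 2 fell (median 0.39), led by the tryptophan enzyme Wars, at 90.02, 86.8 and 87.6 FPKM in wild-type co-culture and 23.4, 24.1 and 23.7 FPKM in hepatocytes alone (1.85 ± 0.04). The serine enzyme Sars rose by 0.87 ± 0.04.

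ATF4 and its partners bind C/EBP-ATF response elements (CARE), searched here as TGATGNAA. The 200 bases before the start are shown for Asns and Chac1, with the match in capitals, because these ATF4 targets rose and each held 1 match there. Asns lies at chr6:7693210-7693409, minus strand, and Chac1 at chr2:119351042-119351241, plus strand, where the match is on the opposite strand.
Asns: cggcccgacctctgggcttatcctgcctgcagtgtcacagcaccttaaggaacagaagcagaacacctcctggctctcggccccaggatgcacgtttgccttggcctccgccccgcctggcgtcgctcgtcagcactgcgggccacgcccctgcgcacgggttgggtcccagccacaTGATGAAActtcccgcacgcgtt
Chac1: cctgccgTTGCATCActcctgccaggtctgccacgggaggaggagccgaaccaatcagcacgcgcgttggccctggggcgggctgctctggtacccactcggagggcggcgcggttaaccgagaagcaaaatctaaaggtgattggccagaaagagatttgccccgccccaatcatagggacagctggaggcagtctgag
The motif stood in 4 of 24 promoters of UPR sensors and factors (16.7%), in 3 of 20 of amino acid transporters (15.0%) and in 14 of the 198 promoters of genes at least 2-fold higher (7.07%). The share was 2.49% in the 523 promoters of genes at least 2-fold lower and 2.09% in all tested promoters. It was 4.06% in all promoters of the table.

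**Figure D2:**
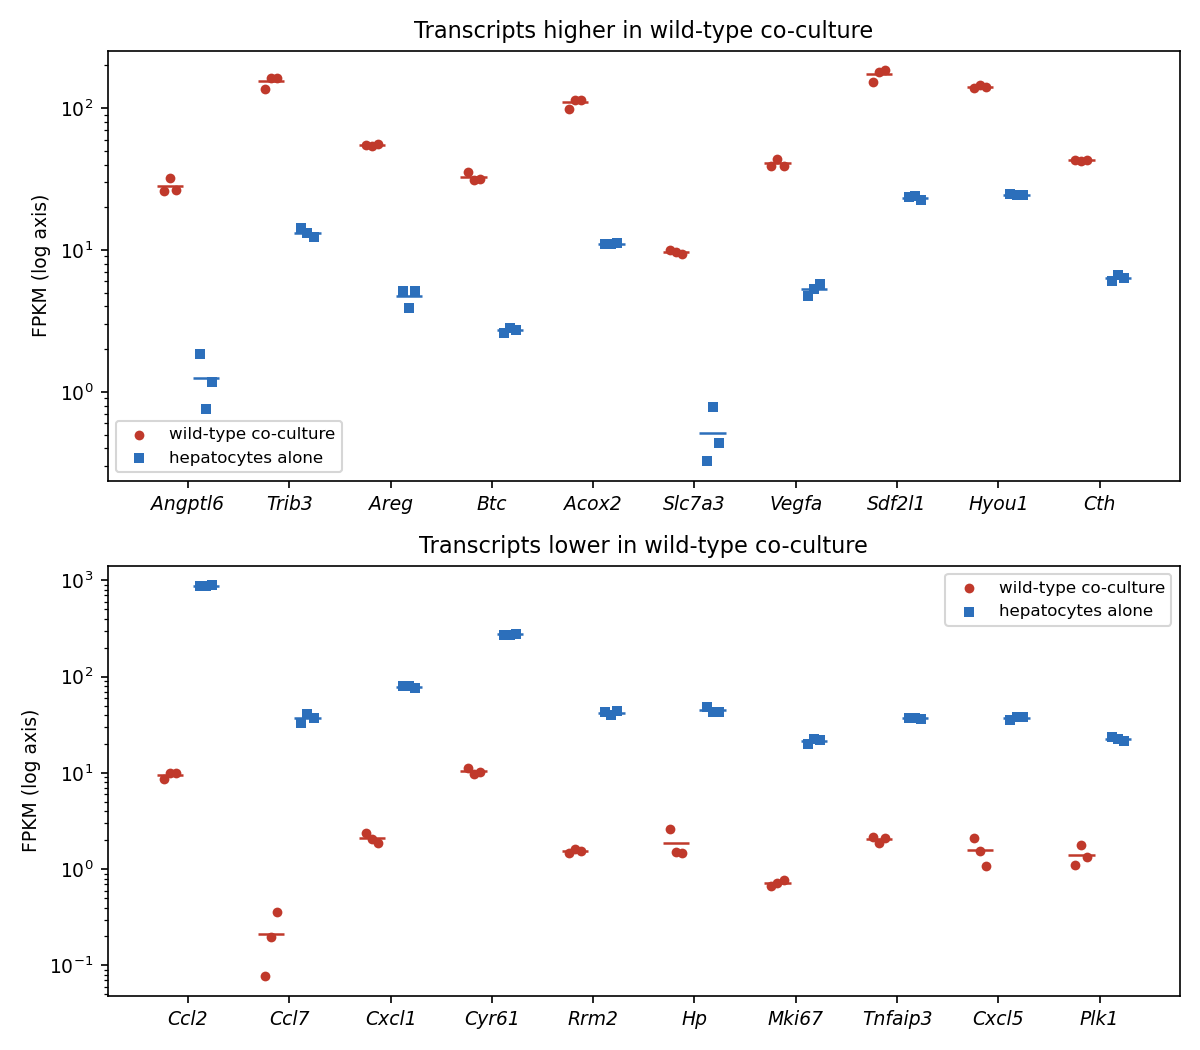
FPKM on a log axis of 10 genes that rose (top) and 10 that fell (bottom), with 3 libraries of wild-type co-culture as red circles and 3 of hepatocytes alone as blue squares. Short lines mark group means. The genes were picked from those whose groups do not overlap, so their separation is not a result. Of the 11395 genes tested, 7104 had groups that do not overlap.

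Growth factor genes were among the largest rises. The EGF receptor ligand Areg was read at 54.9, 54.4 and 56.04 FPKM in wild-type co-culture and 5.11, 3.92 and 5.15 FPKM in hepatocytes alone (3.2995 ± 0.08). Another ligand, Btc, was at 35.7, 31.3 and 31.5 FPKM in wild-type co-culture and 2.604, 2.81 and 2.72 FPKM in hepatocytes alone (3.19 ± 0.08). Ereg rose by 1.08 ± 0.08, while Hbegf (-0.66 ± 0.05) and the receptor gene Egfr (-0.52 ± 0.05) fell, so ligands of the same receptor moved in both directions. Vegfa, the endothelial growth factor, was read at 39.01, 43.9 and 39.3 FPKM in wild-type co-culture and 4.74, 5.35 and 5.797 FPKM in hepatocytes alone (2.73 ± 0.06). Angptl6, an angiopoietin-like secreted protein, had the largest rise on the log2(FPKM + 1) scale (3.72 ± 0.14). It was read at 26.1, 32.4 and 26.6 FPKM in wild-type co-culture and 1.85, 0.753 and 1.17 FPKM in hepatocytes alone. It overlaps A230050P20Rik on the other strand, which differed by 0.29. By the ratio of group means it was not the largest, with 22.5 against 91.96 for Glod5, a gene near 0 in hepatocytes alone. The insulin-like growth factor binding proteins Igfbp3 (2.03 ± 0.07) and Igfbp1 (1.63 ± 0.15) rose and Igfbp7 fell, to 220.3 ± 16.8 FPKM in wild-type co-culture against 912 ± 51.96 FPKM in hepatocytes alone (SD, n = 3 each).

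Several rises belonged to lipid and xenobiotic metabolism. Acox2, a peroxisomal oxidase of bile acid side chains, was read at 98.99, 115 and 115 FPKM in wild-type co-culture and 11.02, 10.9 and 11.2 FPKM in hepatocytes alone (3.19 ± 0.06). Soat2, which esterifies cholesterol in liver, was at 16.2, 15.8 and 15.5 FPKM in wild-type co-culture and 1.46, 1.19 and 1.22 FPKM in hepatocytes alone (2.88 ± 0.06). Akr1b7, an aldo-keto reductase gene, was at 14.98, 13.8 and 17.3 FPKM in wild-type co-culture and 0.914, 0.9296 and 0.802 FPKM in hepatocytes alone (3.12 ± 0.095). Stbd1, whose product ties glycogen to membranes, differed by 3.001 ± 0.07, Cdsn, known from the skin barrier, by 3.47 ± 0.12, and Glod5 by 2.52 ± 0.14, with at most 1 fragment per library of hepatocytes alone.

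Inflammatory transcripts were among the largest falls. All 10 tested chemokines of the 28 listed fell, 9 of them by at least 2-fold (median -3.07). The other 18 were below the filter on the mean over 16 libraries. A member near 0 in wild-type co-culture, such as Cxcl2, passed it through its level in other groups. The count and median thus depend on this filter. Their summed level was 20.5 to 22.3 FPKM in wild-type co-culture and 1076.5 to 1103 FPKM in hepatocytes alone. The monocyte attractant Ccl2 was read at 8.73, 9.92 and 10.02 FPKM in wild-type co-culture and 868, 873 and 892 FPKM in hepatocytes alone (-6.38 ± 0.05, adjusted p = 4.3e-19). Its neighbour Ccl7 was at 0.0775, 0.198 and 0.357 FPKM in wild-type co-culture, from 1 to 6 fragments per library, and at 32.7, 40.8 and 37.1 FPKM in hepatocytes alone (-4.97 ± 0.0995). The neutrophil attractants, ligands of CXCR2, fell too. Cxcl1 was read at 2.38, 2.08 and 1.88 FPKM in wild-type co-culture and 79.9, 79.1 and 75.5 FPKM in hepatocytes alone (-4.67 ± 0.102), Cxcl5 at 2.0999, 1.53 and 1.08 FPKM in wild-type co-culture and 35.4, 37.9 and 38.2 FPKM in hepatocytes alone (-3.91 ± 0.11), and Cxcl2 at 0, 0.102 and 0.138 FPKM in wild-type co-culture and 6.51, 6.58 and 7.45 FPKM in hepatocytes alone (-2.86 ± 0.11). Ccl20 differed by -3.28 ± 0.08 and Cxcl16 by -1.63 ± 0.07.

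NF-kB genes other than chemokines fell in 18 of 20 tested members, 10 by at least 2-fold, and 1, Tnfaip2, rose (0.74 ± 0.06; list median -0.92). The feedback inhibitor genes Tnfaip3 (A20) and Nfkbia changed most. Tnfaip3 was read at 2.14, 1.88 and 2.13 FPKM in wild-type co-culture and 36.9, 37.5 and 36.2 FPKM in hepatocytes alone (-3.63 ± 0.05), and Nfkbia at 8.76, 7.67 and 8.09 FPKM in wild-type co-culture and 70.7, 66.8 and 64.7 FPKM in hepatocytes alone (-2.9001 ± 0.07). The subunit genes Nfkb1 (-1.28 ± 0.04), Relb (-1.17 ± 0.04), Nfkb2 (-1.04 ± 0.06) and Rela (-0.55 ± 0.04) and the adhesion molecule Icam1 (-1.97 ± 0.05) fell less. Of 10 tested cytokine genes, Csf1 (-1.89 ± 0.04), Il11 (-2.03 ± 0.14) and Il33 (-1.39 ± 0.104) were among 5 that fell, while Il34 (0.801 ± 0.103) and Clcf1 (0.46 ± 0.07) rose. Il34 and Csf1 encode ligands of the same macrophage receptor and moved in opposite directions.

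The kB site bound by NF-kB was searched as GGGNNNTTCC. Promoter stretches of Cxcl1, Cxcl2 and Nfkbia are shown, with matches in capitals, because these strongly lowered genes hold the motif next to their starts. Cxcl1 lies at chr5:90891045-90891244, plus strand, Cxcl2 at chr5:90903699-90903898, plus strand, and Nfkbia at chr12:55492648-55492847, minus strand.
Cxcl1: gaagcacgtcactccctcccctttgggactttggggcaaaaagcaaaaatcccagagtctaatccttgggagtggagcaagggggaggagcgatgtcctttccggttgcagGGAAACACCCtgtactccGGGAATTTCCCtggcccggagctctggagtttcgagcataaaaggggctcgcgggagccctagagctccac
Cxcl2: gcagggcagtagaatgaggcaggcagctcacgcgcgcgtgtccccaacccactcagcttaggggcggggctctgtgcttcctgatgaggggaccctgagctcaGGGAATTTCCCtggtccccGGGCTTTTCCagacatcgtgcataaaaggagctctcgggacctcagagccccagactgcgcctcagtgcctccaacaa
Nfkbia: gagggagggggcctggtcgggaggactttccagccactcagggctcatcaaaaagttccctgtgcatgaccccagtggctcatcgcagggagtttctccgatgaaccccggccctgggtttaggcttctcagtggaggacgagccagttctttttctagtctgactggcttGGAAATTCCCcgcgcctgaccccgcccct
Cxcl1 and Cxcl2 have matches on both strands, with one pair shifted by 1 base and so overlapping, and that of Nfkbia is on the opposite strand. The motif stood in 6 of 19 chemokine promoters with a sequence (31.6%) and in 6 of 18 of the NF-kB list (33.3%). Only 10 of the 28 listed chemokines were tested, so the 19 promoters include genes below the filter and are not a part of the tested set. The motif stood in 6.39% of tested promoters and in 7.84% of the 523 promoters of genes at least 2-fold lower, which is near the background.

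Acute phase genes fell in 11 of 14 tested members and rose in 1 (median -1.04). Of the 24 listed, 10 were below the filter, and 3 of the 14 tested were under 1 FPKM in all 6 libraries. Saa3, near 0 in wild-type co-culture, passed the filter through its level in other groups. The count and median thus depend on this filter. The haemoglobin scavenger Hp was at 2.63, 1.51 and 1.49 FPKM in wild-type co-culture and 47.8, 43.3 and 43.4 FPKM in hepatocytes alone (-4.02 ± 0.12), and Saa3, an amyloid A gene, was at 0, 0.0405 and 0.165 FPKM in wild-type co-culture and 9.03, 9.48 and 9.04 FPKM in hepatocytes alone (-3.26 ± 0.101). Ceruloplasmin Cp (-2.54 ± 0.06), the endotoxin-binding Lbp (-1.61 ± 0.04) and the haem-binding Hpx (-1.48 ± 0.05) fell as well, and the pentraxin Apcs rose (0.59 ± 0.14). Complement and coagulation genes fell in 13 of 22 tested members and rose in 2 (median -0.599). Here 14 of the 36 listed were below the filter, and 3 of the 22 tested were under 1 FPKM in all 6 libraries. Complement C3 was at 45.7, 44.9 and 43.6 FPKM in wild-type co-culture and 319, 316 and 321 FPKM in hepatocytes alone (-2.805 ± 0.03). Tissue factor F3 (-2.698 ± 0.06) and the complement protease Cfi (-1.83 ± 0.04) fell, whereas C4b rose to 22.2 ± 1.19 FPKM in wild-type co-culture against 9.47 ± 0.0913 FPKM in hepatocytes alone (SD, n = 3 each). Lect2, a liver-made chemotactic protein (-3.32 ± 0.17), and Cybb, the oxidase subunit gp91phox (-3.31 ± 0.06), were further large falls outside these lists. In the STAT3 pathway 10 of 16 tested genes fell and 4 rose, with the feedback gene Socs3 at 5.93, 8.37 and 6.34 FPKM in wild-type co-culture and 26.3, 23.6 and 21.8 FPKM in hepatocytes alone (-1.67 ± 0.105). Of 39 tested interferon-stimulated genes 11 rose and 15 fell (median -0.04), near the 30.1% and 31.9% of all genes. Of the 39, 13 were under 1 FPKM in all 6 libraries and were tested only because of their levels in the other groups, so the median says little of them. Of them, Ifit2 (-1.75 ± 0.11) and the class I heavy chain H2-K1 (-1.42 ± 0.06) fell and Usp18 (0.76 ± 0.08) rose.

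Genes of cell division fell. In DNA replication 40 of 40 fell, 30 by at least 2-fold (median -1.503), and in mitosis and cytokinesis 40 of 40 fell by at least 2-fold (median -2.45). The summed level of the mitosis genes was 65.2 to 69.001 FPKM in wild-type co-culture and 586 to 602 FPKM in hepatocytes alone. Rrm2, which makes deoxynucleotides, was read at 1.46, 1.64 and 1.55 FPKM in wild-type co-culture and 43.3, 39.6 and 43.6 FPKM in hepatocytes alone (-4.08 ± 0.07). The helicase subunits Mcm5 (-2.74 ± 0.06) and Mcm3 (-2.63 ± 0.04) and the sliding clamp Pcna (-1.65 ± 0.05) fell by less. Mki67, the proliferation antigen, was at 0.667, 0.718 and 0.773 FPKM in wild-type co-culture and 20.04, 22.7 and 22.1 FPKM in hepatocytes alone (-3.72 ± 0.05), and the cyclin Ccnb2 was at 1.34, 1.27 and 1.75 FPKM in wild-type co-culture and 34.4, 33.04 and 34.3 FPKM in hepatocytes alone (-3.84 ± 0.104). In each of the genes with library values here, the highest co-culture library was far below the lowest library of hepatocytes alone. The groups did not overlap, in either direction, in 7104 of the 11395 genes tested. Ccna2 (-3.696 ± 0.11), which overlaps Exosc9 on the other strand, the kinases Plk1 (-3.31 ± 0.099) and Pbk (-3.39 ± 0.11), the survivin gene Birc5 (-3.26 ± 0.097) and topoisomerase Top2a (-3.17 ± 0.05) moved with them.

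Regulators of G1 were mixed, with 16 falls and 5 rises among 24 tested (median -0.303), against 31.9% and 30.1% of all genes. Cyclin E1 gene Ccne1 (-2.22 ± 0.12), E2f8 (-2.72 ± 0.11) and E2f1 (-1.55 ± 0.06) fell by more than 2-fold and cyclin D1 gene Ccnd1 by just under that, to 124 ± 3.84 FPKM in wild-type co-culture against 246 ± 1.87 FPKM in hepatocytes alone (SD, n = 3 each). The CDK4 and CDK6 inhibitor gene Cdkn2b was read at 48.3, 60.5 and 54.8 FPKM in wild-type co-culture and 16.6, 16.95 and 16.6 FPKM in hepatocytes alone (1.64 ± 0.07). Cdkn1a, encoding p21, was lower by a small amount, at 41.8, 48.6 and 44.7 FPKM in wild-type co-culture and 49.4, 49.5 and 49.9 FPKM in hepatocytes alone (-0.14 ± 0.06), a call lost with only the 6 libraries compared (adjusted p = 0.0994) and without any 1 of the 6 libraries except replicate 2 of wild-type co-culture. Of 25 tested genes of p53 (Trp53), its regulators and its targets 5 rose and 10 fell, not far from the 30.1% and 31.9% of all genes. Their median of -0.03 changed sign under quantile normalization (0.05) and under scaling without abundant genes (0.03). Mdm2, a direct p53 target, did not pass the test at 50.3 ± 4.32 FPKM in wild-type co-culture and 52.5 ± 1.23 FPKM in hepatocytes alone (SD, n = 3 each), but passed as lower without replicate 1 of wild-type co-culture (-0.13). The growth arrest genes Gadd45a and Gadd45b moved apart. Gadd45a was at 47.3, 68.1 and 61.8 FPKM in wild-type co-culture and 25.4, 26.2 and 23.8 FPKM in hepatocytes alone (1.19 ± 0.096), and Gadd45b, which is also an NF-kB target, at 2.27, 2.66 and 3.06 FPKM in wild-type co-culture and 25.3, 23.7 and 19.8 FPKM in hepatocytes alone (-2.71 ± 0.12).

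Promoters of mitotic genes carry the cell cycle homology region (CHR, searched as TTTGAA), which MuvB complexes bind, and those of replication genes carry E2F sites (searched as TTTNNCGC). Mki67 and Top2a are shown for the CHR and Mcm5 for the E2F site, since they fell strongly and each holds 2 matches, in capitals. Mki67 lies at chr7:135716380-135716579, minus strand, Top2a at chr11:99024190-99024389, minus strand, and Mcm5 at chr8:75109309-75109508, plus strand.
Mki67: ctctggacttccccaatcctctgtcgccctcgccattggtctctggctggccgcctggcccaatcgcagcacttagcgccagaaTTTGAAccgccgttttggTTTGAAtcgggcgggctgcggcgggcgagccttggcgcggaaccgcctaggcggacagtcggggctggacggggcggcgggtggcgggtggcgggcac
Top2a: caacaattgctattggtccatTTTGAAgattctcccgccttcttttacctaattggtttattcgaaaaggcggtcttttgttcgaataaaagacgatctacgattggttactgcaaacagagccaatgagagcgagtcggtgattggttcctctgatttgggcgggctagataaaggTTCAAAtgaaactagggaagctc
Mcm5: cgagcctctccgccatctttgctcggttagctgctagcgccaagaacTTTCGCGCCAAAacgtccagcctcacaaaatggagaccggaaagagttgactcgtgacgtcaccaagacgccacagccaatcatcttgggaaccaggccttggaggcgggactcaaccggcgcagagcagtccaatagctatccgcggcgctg
In Mcm5 the matches lie on opposite strands and overlap. The CHR stood in 26 of 34 promoters of the mitosis list (76.5%), in 4 of 31 of the replication list (12.9%) and in 11.8% of tested promoters. The E2F motif stood in 12 of 31 of the replication list (38.7%), in 4 of 34 of the mitosis list (11.8%) and in 9.15% of tested promoters, so in these lists each motif had the higher share in its own list. Among the 523 promoters of genes at least 2-fold lower, 24.1% held a CHR match, against 9.6% of the 198 of genes at least 2-fold higher. The CHR has 6 fixed letters and stood in 18.1% of all promoters.

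**Figure D3:**
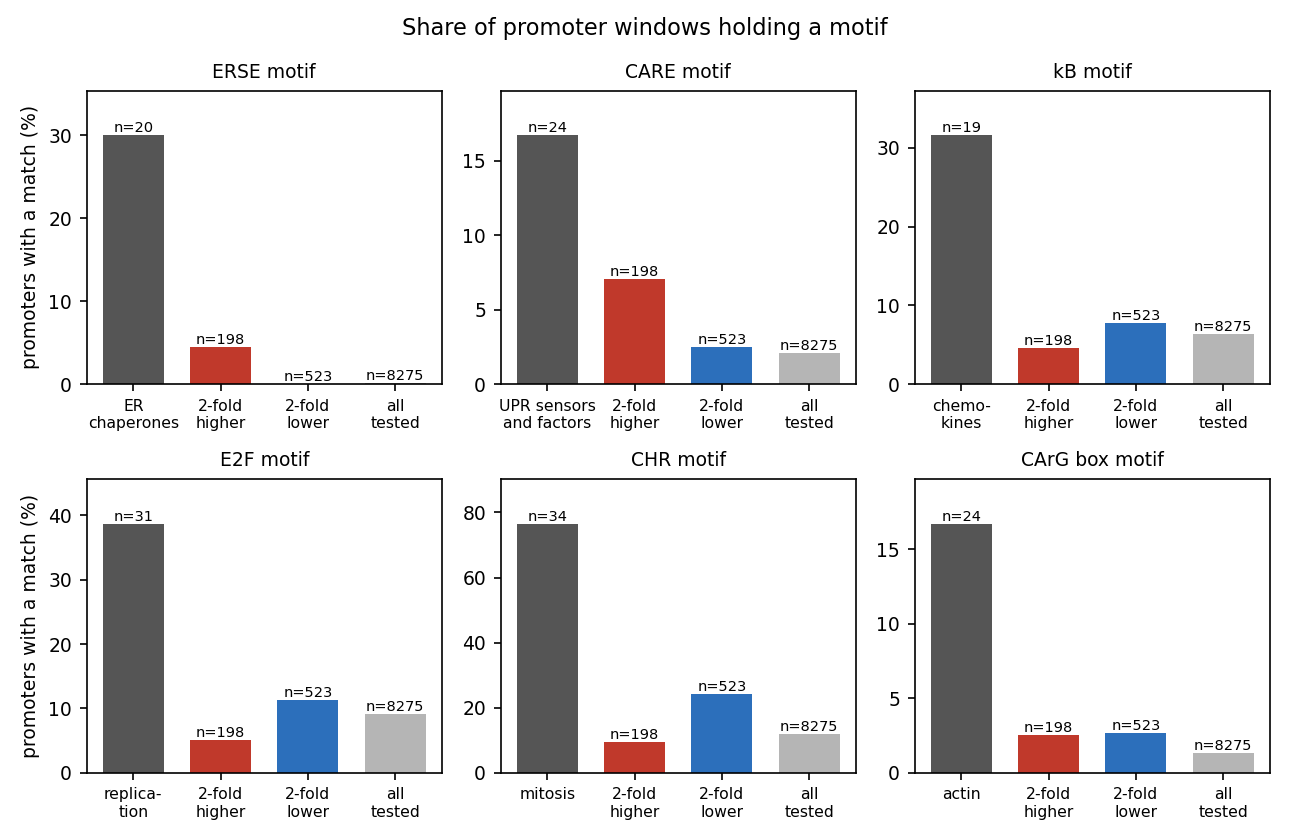
Percentage of promoter windows that hold at least 1 match to each of 6 of the 11 motifs searched, from 250 bases before to 50 after the start, for the gene list named on the left bar, for genes at least 2-fold higher (red) or lower (blue) in wild-type co-culture, and for all tested genes (grey). Numbers above bars count promoters, and list bars include listed genes with a sequence that were below the filter. In these 6 panels each list bar is above the bar of all tested genes, with the CHR in mitosis genes highest at 76.5%.

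The other 5 motifs did not all stand above the background in the lists nearest to them. The XBP1 element TGACGTGG was in 0 of 20 chaperone promoters and 0 of 24 of UPR sensors and factors, against 0.858% of tested promoters. At so low a share, lists of this size can show little. In the whole tested set 71 genes held the element, of which 37 rose and 16 fell (median 0.17), 2 and 3 of them by at least 2-fold. Of all 8275 tested genes with a sequence, 2589 rose and 2797 fell. The sterol element SRE1, searched as ATCACNCCAC, was in 0 of 20 cholesterol promoters, against 0.121% of tested promoters, and with so rare a motif a list of 20 can show little. The TEAD motif CATTCCA was in 3 of 16 promoters of the YAP and TEAD list (18.8%), against 2.59% of tested promoters. It was also in 5 of 24 promoters of the actin list (20.8%). AP-1, searched as TGANTCA, was in 2 of 22 promoters of immediate early factors (9.09%), a list with Fos and Jun, against 4.66%. It was in 5 of 19 chemokine promoters (26.3%), which held the CHR at the same share. Such shares were thus not particular to the nearest list. The CCAAT box, which is also the first part of the ERSE, was in 14 of 20 chaperone promoters and 17 of 20 cholesterol promoters, against 39.5% of tested promoters.

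Genes of the cytoskeleton fell. All 22 tested genes of a list of the actin cytoskeleton fell, 13 by at least 2-fold (median -1.04). The list also holds the intermediate filament genes Vim (-1.03) and Lmna (-0.37). Actb, often used as a reference gene, was read at 380.2, 373 and 396 FPKM in wild-type co-culture and 1099, 1155 and 1122 FPKM in hepatocytes alone (-1.55 ± 0.04). Actg1 was at 208, 180.3 and 173 FPKM in wild-type co-culture and 863, 861 and 849 FPKM in hepatocytes alone (-2.195 ± 0.07), and Cnn2, a calponin, at 11.8, 15.3 and 14.5 FPKM in wild-type co-culture and 102, 100.03 and 101 FPKM in hepatocytes alone (-2.79 ± 0.08). Actin genes have near-identical pseudogenes, so the reads assigned to each are less certain. Serum response factor binds CArG boxes in such promoters. Actg1 (chr11:120348496-120348695, minus strand) and Cnn2 (chr10:79988400-79988599, plus strand) are shown because each holds 1 CArG box, in capitals, which reads the same on both strands.
Actg1: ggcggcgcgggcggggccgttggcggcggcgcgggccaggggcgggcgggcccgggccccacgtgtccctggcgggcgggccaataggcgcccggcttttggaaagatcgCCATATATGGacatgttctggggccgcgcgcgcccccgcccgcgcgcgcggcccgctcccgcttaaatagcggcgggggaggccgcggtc
Cnn2: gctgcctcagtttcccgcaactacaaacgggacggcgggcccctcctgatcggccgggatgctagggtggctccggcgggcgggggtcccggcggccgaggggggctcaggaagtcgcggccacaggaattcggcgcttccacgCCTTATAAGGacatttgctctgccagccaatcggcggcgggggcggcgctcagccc
A CArG box stood in 4 of 24 promoters of the actin list (16.7%) and in 1.31% of tested promoters. The share was 2.68% for genes at least 2-fold lower and 2.53% for genes at least 2-fold higher, so it was alike in both directions.

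In a list of the coactivators YAP and TAZ, their TEAD partners, their regulators and their targets, 13 of 19 tested members fell and 1, the kinase gene Lats1, rose (median -0.51). The matricellular gene Cyr61 was read at 11.4, 9.797 and 10.2 FPKM in wild-type co-culture and 273, 274 and 278 FPKM in hepatocytes alone (-4.59 ± 0.05), Ankrd1 at 8.41, 8.88 and 8.57 FPKM in wild-type co-culture and 62.3, 58.8 and 64.4 FPKM in hepatocytes alone (-2.71 ± 0.05), and Ctgf differed by -1.86 ± 0.06. Immediate early genes fell in 18 of 25 tested members and rose in 1 (median -0.89), among them Zfp36, which destabilises cytokine mRNAs (-2.701 ± 0.09), Ier3 (-1.97 ± 0.06), Fos (-1.604 ± 0.09), Jun (-1.43 ± 0.05) and Egr1 (-1.29 ± 0.03). The MAP kinase phosphatase Dusp1 was at 4.72, 4.303 and 4.37 FPKM in wild-type co-culture and 51.4, 50.2 and 50.9 FPKM in hepatocytes alone (-3.25 ± 0.06), whereas Dusp4 rose (0.72 ± 0.04). For TGF-beta signalling 15 of 21 tested genes fell and 2 rose (median -0.699), including the ligand Tgfb3 (-2.31 ± 0.06), the receptor Tgfbr1 (-1.74 ± 0.07) and the target genes Id3 (-2.47 ± 0.13) and Id1 (-1.796 ± 0.11). Extracellular matrix genes fell in 18 of 24 and rose in 5 (median -0.44). Thbs1 (-2.39 ± 0.08) and Spp1 (osteopontin, -1.69 ± 0.06) fell, and Lama5, a laminin chain, rose (1.13 ± 0.04).

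**Figure D4:**
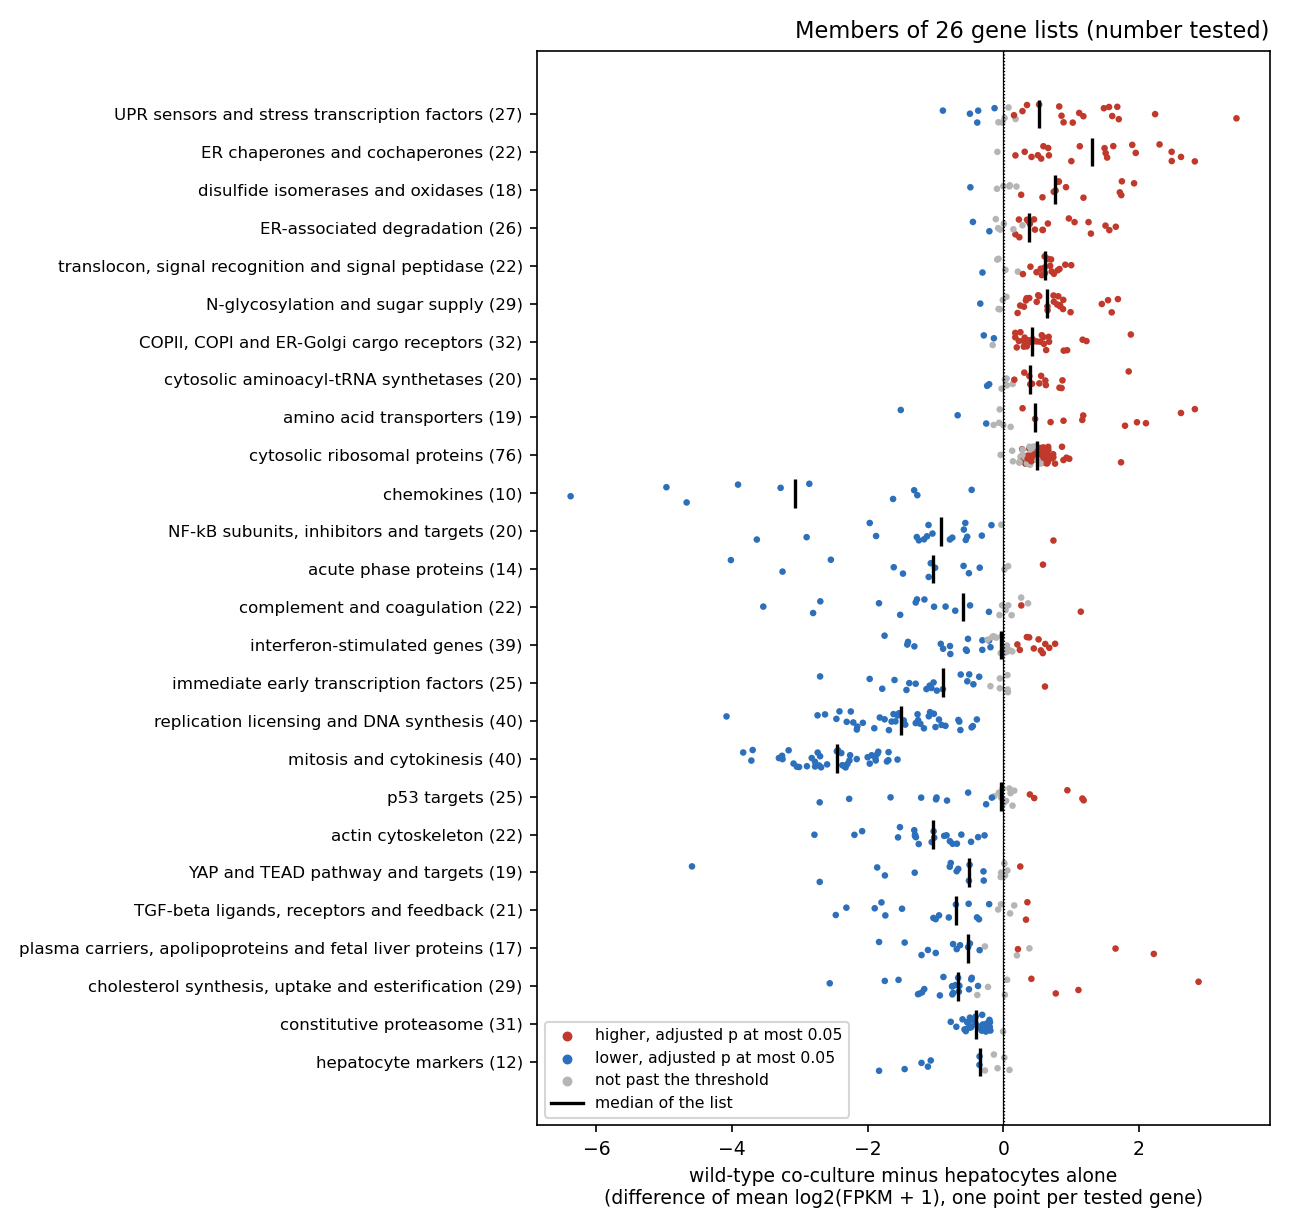
Difference of mean log2(FPKM + 1), wild-type co-culture minus hepatocytes alone, for the tested members of 26 gene lists, one point per gene. Red and blue points rose and fell at an adjusted p of at most 0.05, grey points did not pass, black bars are list medians and the dotted line is the median of all genes. Medians run from -3.07 for chemokines to 1.31 for ER chaperones.

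Plasma protein genes did not move as one. Of 17 tested carriers and apolipoproteins 11 fell and 3 rose (median -0.52). Alb fell by 1.21 and the thyroxine carrier Ttr was at 23.8, 25.1 and 22.9 FPKM in wild-type co-culture and 88.1, 89.001 and 85.96 FPKM in hepatocytes alone (-1.83 ± 0.06). By contrast, the retinol carrier Rbp4, the partner of transthyretin in plasma, was at 519.7, 587 and 606 FPKM in wild-type co-culture and 182, 182 and 177 FPKM in hepatocytes alone (1.66 ± 0.06), and Fetub, encoding fetuin B, at 5.29, 5.13 and 5.23 FPKM in wild-type co-culture and 0.209, 0.288 and 0.523 FPKM in hepatocytes alone (2.22 ± 0.07). Among liver transcription factors 10 of 26 tested rose and 7 fell (median 0.11), near the 30.1% and 31.9% of all genes. Hnf4a did not pass the test (0.09 ± 0.04, adjusted p = 0.08), but passed as higher under quantile normalization (0.19) and without replicate 1 of wild-type co-culture (0.14), and the bile acid receptor gene Nr1h4 fell to 13.1, 12.2 and 13.6 FPKM in wild-type co-culture against 36.6, 37.96 and 36.4 FPKM in hepatocytes alone (-1.44 ± 0.04).

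Cholesterol genes fell in 21 of 29 tested members and rose in 4 (median -0.67). The synthesis enzyme Idi1 was at 2.04, 1.35 and 1.44 FPKM in wild-type co-culture and 13.8, 14.6 and 14.4 FPKM in hepatocytes alone (-2.56 ± 0.095), and Sqle (-1.24 ± 0.08) and Hmgcs1 (-0.93 ± 0.11) fell with it. The 4 genes that rose were Soat2 and Soat1 (0.77 ± 0.06), which esterify cholesterol, Npc1, which exports it from lysosomes (1.11 ± 0.05), and Scap, the escort of the SREBP factors (0.41 ± 0.05). Among genes of fatty acid synthesis 15 of 28 fell and 4 rose, with the desaturase Fads2 at 14.9, 13.6 and 13.1 FPKM in wild-type co-culture and 103, 107 and 104 FPKM in hepatocytes alone (-2.83 ± 0.05). Of 29 fatty acid oxidation and peroxisome genes 15 fell and 4 rose, from the dehydrogenase Acadl (-1.38 ± 0.04) to the thioesterase Acot2 (2.403 ± 0.08) and Acox2. For glycolysis and hypoxia genes 17 of 28 fell and 8 rose. Egln3 (-1.94 ± 0.08) and Ldha (-0.88 ± 0.03) fell and Slc2a1 (0.802 ± 0.05) and Ndrg1 (1.02 ± 0.05) rose beside Vegfa, so hypoxia genes moved in both directions. Of 24 tested P450 and conjugation genes 8 rose and 10 fell, against 30.1% and 31.9% of all genes. Their median of -0.05 changed sign under quantile normalization (0.02). Within them Cyp1a1 rose (1.76 ± 0.06) and the sulfotransferase Sult1a1 fell (-2.86 ± 0.103).

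Ribosomal protein genes rose and proteasome genes fell, by small amounts. Of 76 tested cytosolic ribosomal protein genes 56 rose and 0 fell, with only Rps27a past 2-fold (median 0.49). Without replicate 1 of wild-type co-culture 64 rose. Ribosomal genes have many processed pseudogenes, and the Rps27a value varied between 376, 245 and 318 FPKM in wild-type co-culture, so single members are uncertain. Of 31 proteasome genes 29 fell and 0 rose, none by 2-fold (median -0.41).

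The leading genes were then set beside the other co-cultures. Between wild-type and knockout co-culture 341 genes (2.99%) differed, 153 higher and 188 lower in wild-type co-culture, and this number depended on the fit: 17 passed with only those 6 libraries, and 199 without replicate 3 of wild-type co-culture. Among the 40 protein-coding genes with the largest changes 6 differed, of which 5 are given here. Ccl2 was at 8.73, 9.92 and 10.02 FPKM in wild-type co-culture and 16.7, 16.2 and 15.5 FPKM in knockout co-culture (-0.701 ± 0.05, adjusted p = 1.2e-06). Acox2 was at 98.99, 115 and 115 FPKM in wild-type co-culture and 142, 148 and 136 FPKM in knockout co-culture (-0.38 ± 0.06), and Btc at 35.7, 31.3 and 31.5 FPKM in wild-type co-culture and 26.2, 24.3 and 24.3 FPKM in knockout co-culture (0.38 ± 0.08). In each of these the knockout libraries lay outside the range of the wild-type ones and far from hepatocytes alone. How many tested genes lie so was not counted. Rrm2 (-0.38 ± 0.07) and Mki67 (-0.23 ± 0.05) differed as well. For the other 34 genes no difference passed the test, Trib3 among them with 135, 163 and 163 FPKM in wild-type co-culture and 156, 177 and 163 FPKM in knockout co-culture.

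With the CXCR2 inhibitor, levels in wild-type co-culture differed for 7584 genes (66.6%), so a difference in a single gene is close to the background. No group had the inhibitor without cancer cells, and the vehicle is not stated, so its own effect on hepatocytes cannot be told apart from an effect on the co-culture. Among the 40 leading genes 38 differed when the inhibitor was absent or present, and Vegfa (39.01, 43.9 and 39.3 FPKM without and 36.6, 39.2 and 36.1 FPKM with it) and Soat2 (16.2, 15.8 and 15.5 FPKM without and 15.2, 14.4 and 16.2 FPKM with it) were the 2 that did not pass. Mitochondrially encoded transcripts took 3.49 to 4.57% of fragments in wild-type co-culture and 1.86 to 2.11% with the inhibitor, and their part in these differences was not tested. Ccl2 averaged 9.56 ± 0.717 FPKM in wild-type co-culture, 291 ± 2.78 FPKM with the inhibitor and 878 ± 12.7 FPKM in hepatocytes alone (SD, n = 3 each). Mki67 averaged 0.719 ± 0.0532 FPKM in wild-type co-culture, 14.9 ± 0.412 FPKM with the inhibitor and 21.6 ± 1.39 FPKM in hepatocytes alone, and Angptl6 28.3 ± 3.499, 4.52 ± 0.673 and 1.26 ± 0.554 FPKM in the same order. For these genes the level with the inhibitor lay between the others. Alb with the inhibitor was above both, at 27.2, 22.5 and 23.02 FPKM in wild-type co-culture, 343, 323 and 338 FPKM with the inhibitor and 57.8, 58.4 and 55.01 FPKM in hepatocytes alone.

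**Figure D5:**
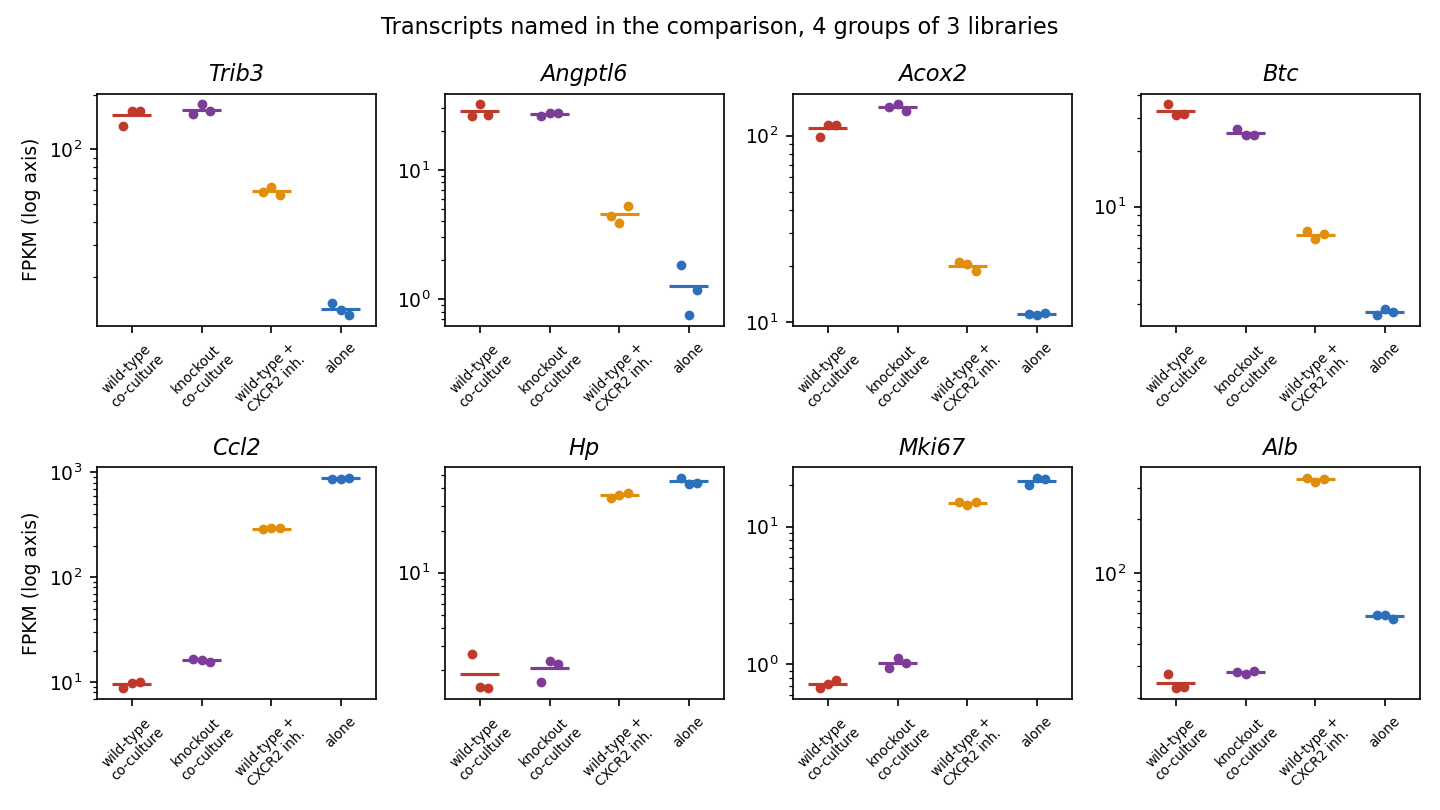
FPKM on a log axis of 8 genes in wild-type co-culture, knockout co-culture, wild-type co-culture with the CXCR2 inhibitor and hepatocytes alone, with 3 libraries each and lines at group means. In the first 7 genes the libraries with the inhibitor lie between wild-type co-culture and hepatocytes alone, and for Alb they lie above both.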

How the data were processed

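RNA was sequenced from 16 libraries labelled as mouse hepatocytes, extracted with the RNeasy mini kit and prepared by Novogene, per the labels' protocols. The deposited values are FPKM per gene, which the authors normalised by gene length and by fragments per library. HISAT2 and GRCm38 (mm10) are named in the submitters' processing notes. Versions, the counting tool, annotation, strandedness and filters were not given in the sources used here, so overlapping genes and near-identical copies are uncertain.

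Fragments per gene were recovered from the FPKM steps and gene lengths, and 100% were whole within 0.1. They served for depth and for 1 alternative, and no count test was run as the main test. From the FPKM, log2(FPKM + 1) was fitted with limma 3.58.1 (R 4.3.3, trended empirical Bayes, a mean per group over 16 libraries, 11 residual degrees of freedom) for 11395 of 54532 genes with a mean of at least 1 FPKM. P-values were adjusted over these genes (Benjamini-Hochberg, 0.05). The fit was tested on simulated data. Named genes were the serine genes, CXCR2 receptors and Alb, and the 20 protein-coding genes with the largest difference each way. The latter were taken from genes past the threshold whose libraries do not overlap between both groups. Up to 6 leading members per list and others by role were added, with the cell type markers. The 5 leading genes each way against the other co-cultures and the 5 leading noncoding genes each way completed the rule. A few genes that this rule names are not reported here. The members and gene lists were chosen with earlier results of these data known. Promoters are from RefSeq (GRCm38.p6), matched by symbol.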

Additional observations from a re-analysis of the deposited data

Results flagged for a closer look

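Between wild-type and knockout co-culture, 6 of the 40 protein-coding genes with the largest changes against hepatocytes alone differed by limma's test of the difference itself (n = 3 libraries each), and 5 of them are given here. Ccl2 was lower by -0.70 on the log2 scale (adjusted p = 1.2e-06), Rrm2 by -0.38 (adjusted p = 0.00965), Acox2 by -0.38 (adjusted p = 0.00231) and Mki67 by -0.23 (adjusted p = 0.0298) in wild-type co-culture. Btc was higher by 0.38 (adjusted p = 0.0147) in wild-type co-culture. In each of these 5 genes all 3 wild-type libraries lay on 1 side of all 3 knockout libraries. The share of all tested genes that separate so was not counted, and the 5 were chosen for passing this test. The adjusted p-values are from limma's fit over 16 libraries, where 341 genes passed, against 17 with only those 6 libraries. For Acox2 the mean of knockout co-culture lay farther from hepatocytes alone than that of wild-type co-culture, and for the other 4 it lay nearer. The cause was not tested.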

How the results depend on the processing

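Against hepatocytes alone, no alternative moved the counts of 3432 rises, 3638 falls or 724 falls of at least 2-fold by over 1.5 times. The 296 rises of at least 2-fold became 531 with a pseudocount of 0.1 and 546 with voom on recovered fragments, both of which shrink low genes less. Leaving out 1 library gave 3155 to 3452 rises, 3410 to 3690 falls, 297 to 325 and 720 to 737 of at least 2-fold, 199 to 398 differences between wild-type and knockout co-culture and 7138 to 7699 with the inhibitor. The 341 differences between wild-type and knockout co-culture became 199 without replicate 3 of wild-type co-culture and 17 with only those 6 libraries. Of 218 named genes 200 kept their direction and side of the threshold in every alternative run. Signs turned for genes near 0. Under quantile normalization Phgdh was at 0.0873, Mdm2 at 0.0457, Slc38a2 at 0.0533, Exosc9 at 0.0018 and Msln at 0.12. Under scaling without mitochondrial and the 50 most abundant genes Phgdh was at 0.0227, Slc38a2 at 0.0038, Exosc9 at 0.0183 and Msln at 0.0314. Leaving out 1 library gave -0.10 to 0.0303 for Exosc9 and -0.0601 to 0.0153 for Msln. The cause was not tested. With voom on recovered fragments the list medians of chemokines and acute phase genes were -4.93 and -1.63. Same-numbered libraries of wild-type co-culture and hepatocytes alone deviated together with correlations of -0.0831, -0.181 and 0.0715, so the numbers share no visible pairing. With a replicate block 3428 genes rose and 3630 fell, 296 and 725 by at least 2-fold, and 263 and 7573 differed from knockout co-culture and from the inhibitor. At these depths 1 fragment per kb is 0.0477 to 0.0627 FPKM, so genes of a few fragments carry mainly counting error.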

Other observations

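Named long noncoding RNAs rose almost throughout: 14 of 15 tested rose, 0 fell and Mir22hg did not pass the test (limma, n = 3 libraries each; list median 0.99). Their summed level was 373 to 488 FPKM in wild-type co-culture and 186 to 198 FPKM in hepatocytes alone. Gas5, a snoRNA host transcript, was read at 80.4, 106 and 112 FPKM in wild-type co-culture and 29.6, 26.9 and 31.9 FPKM in hepatocytes alone (1.71 ± 0.12). The snoRNA host Snhg12 (2.01 ± 0.15) and the nuclear transcripts Neat1 (1.08 ± 0.096) and Malat1 (0.77 ± 0.08) rose as well. Of longer noncoding genes that fell, AW112010 was at 2.58, 2.53 and 2.91 FPKM in wild-type co-culture and 40.8, 37.4 and 35.4 FPKM in hepatocytes alone (-3.402 ± 0.08). Among the leading noncoding genes several were short RNAs inside host genes with few fragments, such as Snord83b within Rpl3, with 7 to 10 fragments in wild-type co-culture and 0 to 3 in hepatocytes alone.

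Genes of NRF2, the regulator of antioxidant genes, its inhibitor and its targets fell in 14 of 22 tested members and rose in 2 (median -0.27). Prdx1, a peroxiredoxin, was at 155, 125 and 134 FPKM in wild-type co-culture and 311, 322 and 327 FPKM in hepatocytes alone (-1.21 ± 0.06), and the glutathione genes Gsr (-1.11 ± 0.04) and Gclc (-0.75 ± 0.06) fell too. Hmox1 did not pass the test, at 32.2 ± 4.72 FPKM in wild-type co-culture and 28.99 ± 0.925 FPKM in hepatocytes alone (SD, n = 3 each), but passed as higher without replicate 1 of wild-type co-culture (0.26). Of 34 tested lysosome and autophagy genes 13 rose and 13 fell, near the 30.1% and 31.9% of all genes. The autophagy receptor Sqstm1 rose most of them (1.14 ± 0.04) and the galactosidase Gla fell most (-0.76 ± 0.04). Of 13 mitochondrially encoded transcripts 1 (mt-Co3) rose and 12 did not pass the test. The call of mt-Co3 was lost without replicate 1 of wild-type co-culture (adjusted p = 0.169).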
